A study of Mus musculus with 16 samples.

Results

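Slc10a2, Fabp6, Slc51a, Slc51b, Fgf15 and Nr1h4 are the genes with which absorptive cells of the ileum recover bile acids and signal their return to the liver. The 6 genes were taken by symbol from the 24421 rows that both deposited matrices list, by a rule that names them and uses no measured value, although earlier results of these data were known when they were chosen. The matrices hold 1348 WT and 1249 ROBO single cells from crypt-enriched small intestine of outbred mice at postnatal day 16, counted as unique molecular identifiers (UMIs), each a captured transcript molecule. ROBO mice carry 1 copy of the ROBO transgene, a CAG promoter cassette in the ROSA26 locus, and 1 copy of Villin-Cre, which acts throughout the gut epithelium from before birth, so that each recombined cell expresses 1 of 3 human oncogenes, RSPO3 or either of its fusions with PTPRK. The WT group is labelled wild-type, and the labels name no allele for it. Per the labels, each genotype has 8 samples and used 2 cartridges, for at most 2400 cells, but cell names give only the genotype, so each genotype was 1 pooled sample. No test between genotypes was possible, and every interval is a 95% interval that covers counting error only, not the spread between mice.

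In background, bile acids are made in the liver, stored in bile and taken back by the distal small intestine. The apical sodium-dependent transporter Slc10a2 brings them into the enterocyte, the cytosolic protein Fabp6 binds them, and the heterodimer of Slc51a and Slc51b, of which neither chain works alone, passes them across the basolateral membrane to portal blood. The nuclear receptor Nr1h4 (FXR) is activated by bile acids inside the cell and switches on Fgf15, a hormone that travels to the liver and lowers bile acid synthesis. In rodents the apical uptake system is known to appear around weaning.

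Total depth was 2682127 UMIs in WT and 2428435 UMIs in ROBO, with medians of 1492 and 1610 UMIs per cell. Clustering without the 6 genes gave 13 clusters, of which 4 were named enterocyte-like. They held 1023 cells, 519 of 1348 WT cells (38.5%) and 504 of 1249 ROBO cells (40.4%). Unnamed cluster 9, with 95 cells, also had 11 middle enterocyte markers raised. It was left unnamed because its 10 leading genes held none of them and 1 marker of another enterocyte class, the top marker Klf4. It is therefore not counted among the enterocyte-like cells, although the markers behind both classes are enterocyte markers. The bottom enterocyte-like class was 1 cluster of 390 cells led by Gsdmc4 and Dmbt1, the middle class was 2 clusters with 403 cells led by Cubn and Lct or by Sis and Gsta1, and the top class was 1 cluster of 230 cells led by Mfi2, Gpx3 and Ada. The classes differed in depth, and bottom enterocyte-like cells had a median of 2548 UMIs, against 1679 in middle and 1234 in top enterocyte-like cells. Shares of cells are therefore given with all UMIs and again as the share expected when each cell is reduced to 912 UMIs, the lower quartile, which leaves 850 enterocyte-like cells and leaves out 101 WT and 72 ROBO cells that were shallower.

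The 6 genes lie on 6 chromosomes in GRCm38: Slc10a2 at chr8:5083219-5105351, Fabp6 at chr11:43596049-43601540, Slc51a at chr16:32474504-32487879, Slc51b at chr9:65412714-65422955, Fgf15 at chr7:144896531-144900953 and Nr1h4 at chr10:89454234-89533585. Fgf15 is on the plus strand and the others are on the minus strand. RefSeq promoter windows (GRCm38.p6) were at hand for 5 of them, all but Fgf15. The 250 bases before the RefSeq start of Slc51a and of Slc51b are shown because the 2 chains of the exporter were the members whose levels followed each other most closely over the clusters. They are printed 5′ to 3′ on the minus strand, from chr16:32487880-32488129 and chr9:65422774-65423023, with matches to AGGTCA, the hexamer core of nuclear receptor sites, and to the E-box CACGTG in capitals. The positions above are GENCODE gene spans, and the RefSeq start is the same base for Slc51a but lies 182 bases inside the span for Slc51b, 64 for Slc10a2 and 26927 for Nr1h4, and 22 bases outside it for Fabp6, so most of the Slc51b window and all of the Nr1h4 window are within the GENCODE gene.
Slc51a: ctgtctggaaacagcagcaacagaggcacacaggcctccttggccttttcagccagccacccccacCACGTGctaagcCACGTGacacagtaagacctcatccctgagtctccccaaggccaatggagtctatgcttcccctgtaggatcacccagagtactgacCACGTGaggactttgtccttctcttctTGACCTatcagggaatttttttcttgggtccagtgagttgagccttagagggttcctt
Slc51b: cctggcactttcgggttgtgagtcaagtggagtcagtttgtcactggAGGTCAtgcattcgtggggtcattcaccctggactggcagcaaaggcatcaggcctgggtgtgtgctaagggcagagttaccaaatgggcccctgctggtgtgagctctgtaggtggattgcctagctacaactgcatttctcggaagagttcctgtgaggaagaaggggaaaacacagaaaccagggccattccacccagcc
Both strands were searched in the 250 bases of all 32851 windows. AGGTCA had 1 match in Slc51a, beginning 58 bases before the start on the reverse strand, 1 in Slc51b at 203 bases and 1 in Nr1h4 at 214 bases, and none in Slc10a2 or Fabp6; 14.0% of all windows held at least 1. CACGTG had 3 matches in Slc51a, at 184, 172 and 85 bases, and none in the other 4 windows, while 6.02% of all windows held at least 1 and 0.0609% held at least 3. The inverted repeat of the GGTCA core with 1 base between its arms was in none of the 5 windows and in 0.0335% of all. AGATAA had 1 match, in Nr1h4, and TATAAA had 1, in Fabp6, with 9.99% and 12.4% of all windows holding at least 1. These 5 motifs were picked after the sequences had been read, and a match describes the letters only.

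The uptake transporter and the cytosolic binding protein were at or next to 0. No UMI of Slc10a2 was counted in 1348 WT or 1249 ROBO cells, and by the limit of 3 counts the share of cells with a UMI was at most 0.223% in WT and 0.240% in ROBO, or 0.578% and 0.595% of the enterocyte-like cells. Fabp6 had 2 UMIs in 2 WT cells, 1 in a bottom enterocyte-like cell and 1 in a transiently amplifying-like cell, and none in ROBO. Neither of the 2 cells had a UMI of another of the 6 genes. No genotype difference was detectable for Slc10a2 or Fabp6 at this depth.

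The name "ileal" was checked against a list of regional markers. All 10 proximal markers had UMIs in these cells, among them Apoa4 (89389 UMIs), Fabp1 (8039) and the brush border lactase Lct (5584). Of all 24421 genes listed, 13201 were found in at least 3 cells, so detection alone does not place the cells in a region. Of 10 distal markers, which include 5 of the 6 genes, Slc10a2 was at 0 and Fabp6 had 2 UMIs, but Clec2h (2817), the vitamin B12 receptor Cubn (860), Mep1a (679) and the phosphate transporter Slc34a2 (530) were present. Cubn also marks the suckling stage, so at postnatal day 16 it cannot tell region from age. Lct, listed as proximal, was a leading gene of the same cluster as Cubn, and whether its level goes with region or age was not tested. The 4 colon markers together had 44 UMIs. The study's organoid protocol, to which its crypt isolation refers, takes the proximal small intestine. Whether any of these cells came from the ileum was not tested.

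**Figure D1:**
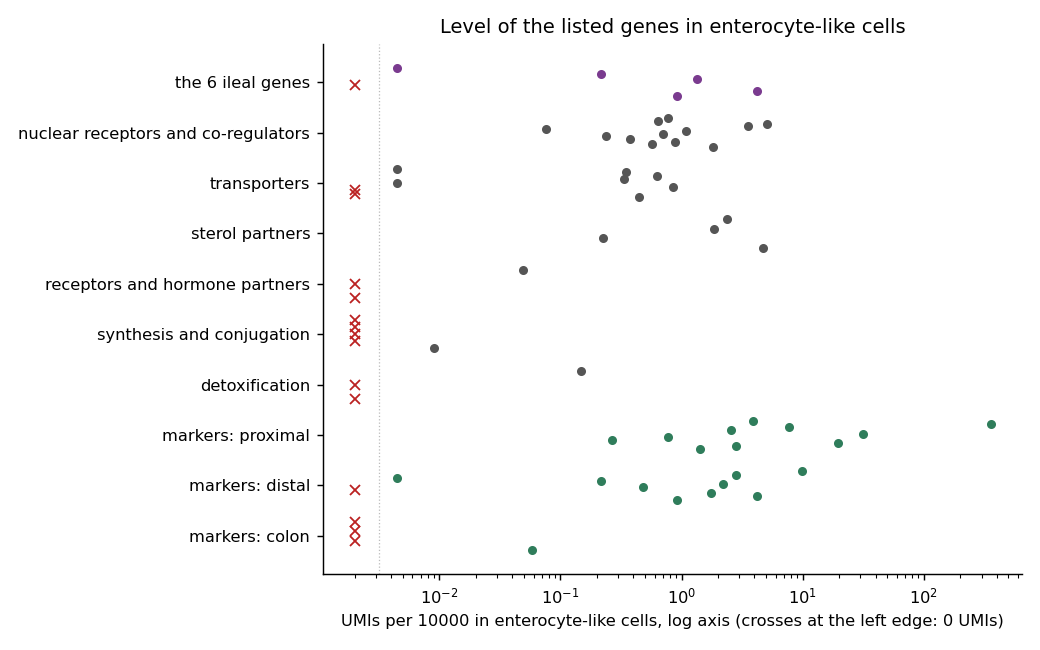
Level of every listed gene in enterocyte-like cells, both genotypes pooled, in UMIs per 10000 UMIs on a log axis, 1 point per gene and 1 row per list; crosses at the left edge are genes with 0 UMIs. Of the 6 ileal genes, Slc10a2 is a cross, Fabp6 is near the edge and Slc51a is the farthest to the right at 4.23.

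The 2 chains of the basolateral exporter were found without the uptake transporter. Slc51a had 682 UMIs in 358 WT cells and 610 UMIs in 343 ROBO cells. In enterocyte-like cells it had a level of 4.33 UMIs per 10000 (3.95 to 4.73) in WT and 4.12 (3.75 to 4.52) in ROBO. It was detected in 238 of 519 WT cells (45.9%, 41.5 to 50.3) and in 240 of 504 ROBO cells (47.6%, 43.2 to 52.1), and thinned to 31.5% and 29.3%. The intervals of the genotypes overlap on each of these measures.

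Slc51a was low in stem cell-like and transiently amplifying-like cells and, among the named classes, highest in middle and top enterocyte-like cells. The class names come from markers, and position in the tissue was not measured. Over both genotypes, stem cell-like cells had a level of 0.55 UMIs per 10000 and transiently amplifying-like cells 0.90. Among enterocyte-like cells the bottom class had 2.12, the middle class 6.40 and the top class 5.60. Middle and top cells together stood 2.92-fold above bottom cells (2.51 to 3.40), by 3.00-fold in WT (2.45 to 3.69) and 2.90-fold in ROBO (2.31 to 3.68). Between the middle and top clusters the levels did not part: the top cluster was 0.838 times the Cubn and Lct cluster (0.697 to 1.01) and 0.95 times the Sis cluster (0.769 to 1.17). The thinned share was 4.06% of stem cell-like cells (2.09 to 7.05), and among enterocyte-like cells it was 17.2% for the bottom class, 41.2% for the middle class and 37.5% for the top class. It was 3.96% in secretory-like and 3.30% in immune-like cells, with median depths of 1694 and 1749.5 UMIs, both inside the stem cell-like interval, so a stem cell-like share above that of cells outside the absorptive lineage was not detectable. The classes were built from genes of the same cells, so class levels are a description and carry no test. Under 5 other clusterings that had a bottom class the log2 ratio of middle and top over bottom cells was 0.80 to 1.37, against 1.54 here.

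Slc51b differed more between classes than Slc51a. Its level was 0.85 UMIs per 10000 (0.69 to 1.04) in WT and 1.00 (0.82 to 1.21) in ROBO enterocyte-like cells, from 96 UMIs in 76 cells and 110 UMIs in 72 cells. These are 14.6% of WT and 14.3% of ROBO cells, and 8.21% and 7.47% when thinned. The level was 0.21 UMIs per 10000 in the bottom class, 1.59 in the middle class and 1.55 in the top class, and middle and top cells stood 7.35-fold above bottom cells (4.75 to 11.9). Taken separately, WT cells had a fold of 6.03 (3.45 to 11.3) and ROBO cells one of 9.68 (4.73 to 23.0). On the log2 scale the ratio over both genotypes was 2.88, and it was 1.86 to 2.96 under the other 5 clusterings. Its level over all enterocyte-like cells was 0.92 UMIs per 10000 with both genotypes and 1.47 at a clustering resolution of 0.5, where no cluster was named bottom enterocyte-like. Stem cell-like cells had 6 UMIs in all, and immune-like cells had 0 of 46 cells with a UMI.

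Because the exporter needs both chains, their proportion was compared between classes. For each Slc51b UMI the bottom class had 9.87 Slc51a UMIs (6.42 to 15.9), the middle class 4.02 (3.32 to 4.90) and the top class 3.62 (2.63 to 5.06). With both genotypes the bottom interval lies above both others. Within WT it does not, since bottom cells had 8.87 (5.19 to 16.3) from 15 Slc51b UMIs, middle cells 4.76 (3.57 to 6.43) and top cells 3.52 (2.19 to 5.87). In ROBO the bottom class had 11.7 (5.72 to 28) from 8 Slc51b UMIs, against 3.45 (2.66 to 4.53) and 3.70 (2.40 to 5.90), where the bottom and top intervals overlap. Middle and top cells together had 4.41 (3.45 to 5.68) in WT and 3.52 (2.82 to 4.43) in ROBO, which overlap. Capture differs between transcripts, so the proportion compares classes and does not give a stoichiometry.

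**Figure D2:**
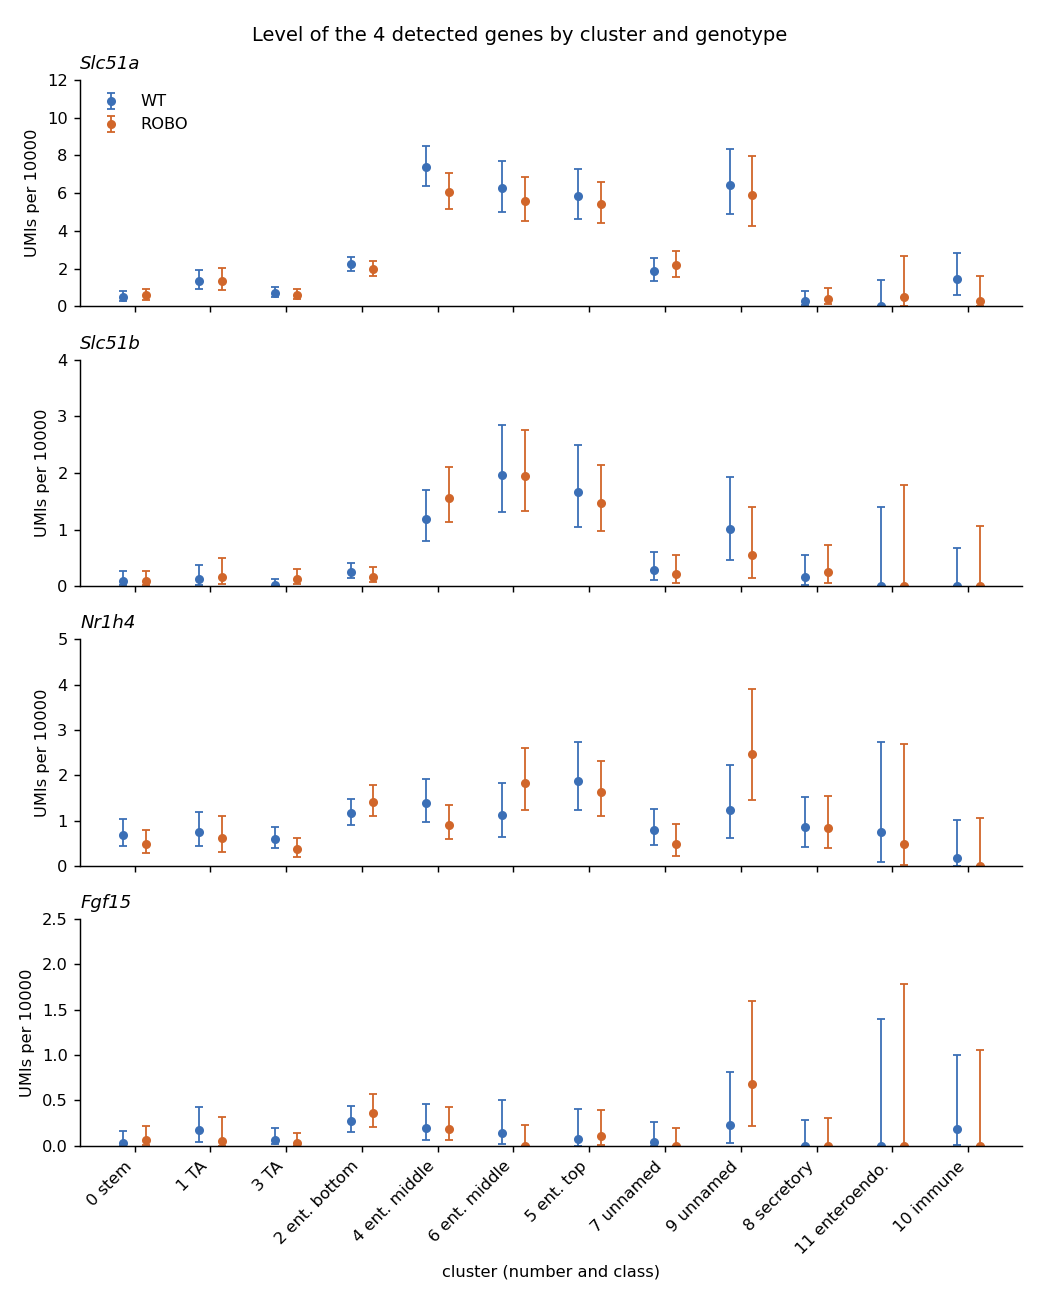
Level of Slc51a, Slc51b, Nr1h4 and Fgf15 in UMIs per 10000 for each cluster of WT (blue) and ROBO (orange) cells, with exact Poisson 95% intervals; the fibroblast-like cluster of 8 cells is left out. Slc51a and Slc51b are high in the 3 middle and top enterocyte clusters and Slc51a also in unnamed cluster 9, Nr1h4 is spread over more clusters, and Fgf15 stays low in all.

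Nr1h4, the bile acid receptor, was the most evenly spread of the 4 detected genes. It had 257 UMIs in 192 WT cells and 231 UMIs in 179 ROBO cells. Its level was 1.30 UMIs per 10000 (1.10 to 1.53) in WT and 1.38 (1.17 to 1.62) in ROBO enterocyte-like cells, in 20.6% and 23.0% of cells, or 11.6% and 10.4% when thinned. The bottom, middle and top classes had 1.28, 1.27 and 1.73 UMIs per 10000, and middle and top cells were 1.09 times bottom cells (0.865 to 1.38), a log2 ratio of 0.13 that was -0.41 to -0.03 under the other 5 clusterings. Middle and top cells stood 2.36-fold above stem cell-like cells (1.66 to 3.44), which had 0.59 UMIs per 10000, and secretory-like cells had 0.84. The thinned share was 11.0% in bottom enterocyte-like, 5.05% in stem cell-like, 6.37% in secretory-like and 0.397% in immune-like cells.

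Fgf15, the hormone under the receptor's control, was rare and had its highest level among enterocyte-like cells in the bottom class. It had 36 UMIs in 30 WT cells and 33 UMIs in 23 ROBO cells. Enterocyte-like cells had 24 UMIs in each genotype, in 19 WT cells (3.66%) and 14 ROBO cells (2.78%), which thinned to 1.70% and 1.18%. The bottom class had a level of 0.31 UMIs per 10000, the middle class 0.14 and the top class 0.09. Middle and top cells were 0.420 times bottom cells (0.212 to 0.795), with 0.558 (0.207 to 1.38) in WT and 0.313 (0.110 to 0.793) in ROBO. Bottom cells stood 6.77-fold above stem cell-like cells, but the latter had 3 UMIs and the interval ran from 2.12 to 34.5. The thinned share in bottom cells was 2.56% (1.19 to 4.77). The interval of the 36 immune-like cells deep enough to thin reached 10.5%, too wide to decide whether that share is above background. The only Fgf15 UMI of the immune-like class was in 1 cell, and secretory-like cells had no Fgf15 UMI in either genotype. A share above background was not tested. No more than 3 Fgf15 UMIs were counted in any cell.

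**Figure D3:**
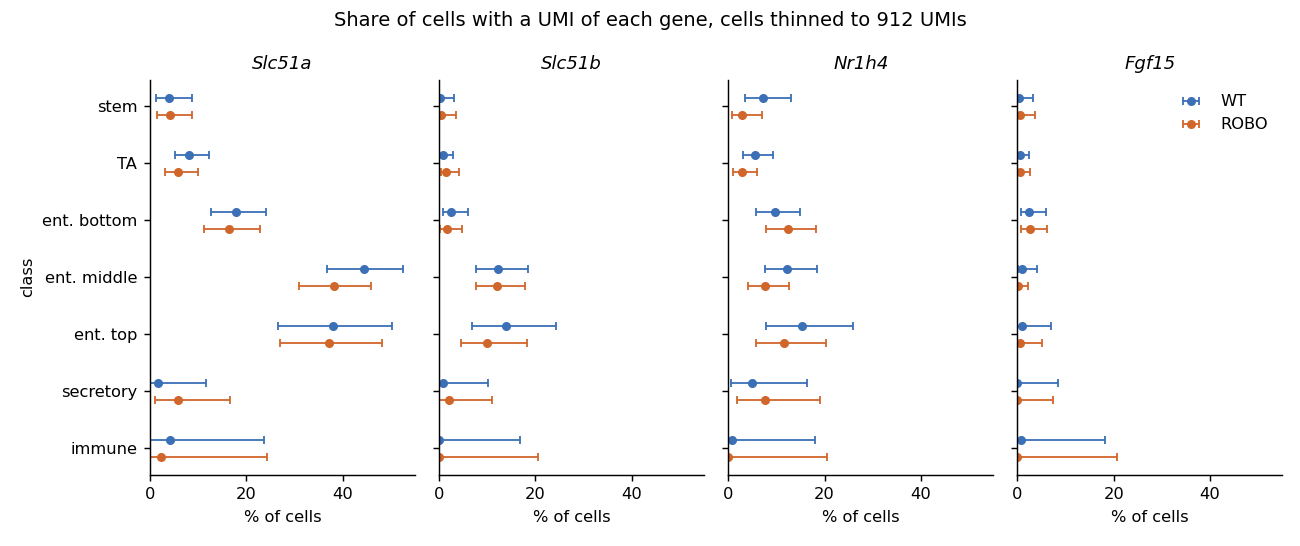
Share of cells, in percent, with at least 1 UMI of each gene after reduction to 912 UMIs per cell, by class, for WT (blue) and ROBO (orange). The binomial 95% intervals use the expected number of cells as the count and are approximate. Slc51a is at 17.2% of bottom and 41.2% of middle enterocyte-like cells over both genotypes, while Nr1h4 is at 11.0% of bottom and 9.88% of middle cells and Fgf15 lies near the axis.

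In 1 immune-like WT cell with 6388 UMIs, 7 Slc51a UMIs were counted together with 1 of Fgf15 and 1 of Nr1h4 but none of the enterocyte apolipoprotein Apoa4. Without it the Slc51a level of the immune-like class was 0.24 instead of 1.00 UMIs per 10000, and the other 45 cells had no Fgf15 or Nr1h4. Scrublet did not call it a doublet.

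The genes were then followed in the same cells. Of 1023 enterocyte-like cells, 400 had none of the 6 genes, 398 had 1, 192 had 2, 31 had 3, 2 had 4 and none had more. At least 1 gene was present in 60.3% of WT and 61.5% of ROBO cells. The genotypes were ordered differently in the classes, with 45% in WT and 53.5% in ROBO among bottom cells and 71.4% in WT and 65.7% in ROBO among middle and top cells. Thinned, the shares were 27.5% and 28.4% in bottom cells and 57.3% and 49.3% in middle and top cells.

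Slc51a and Slc51b shared 97 enterocyte-like cells. Slc51b was detected in 20.3% of cells with Slc51a and in 9.36% of cells without it, a difference of 10.9 percentage points (6.60 to 15.3). Cells with Slc51a were deeper, with a median of 1974 UMIs against 1545. After thinning the shares were 10.9% and 6.49%, a difference of 4.43 points (0.468 to 9.15). Within middle and top enterocyte-like cells the thinned shares were 13.5% and 11.1%, and the difference of 2.41 points had an interval (-3.37 to 8.71) that held 0. Within bottom enterocyte-like cells they were 2.80% and 1.96%, 0.842 points apart (-2.26 to 8.55). By genotype the thinned difference over all enterocyte-like cells was 2.79 points (-2.66 to 9.60) in WT and 6.06 (0.530 to 13.1) in ROBO.

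Slc51a and Nr1h4 shared 125 enterocyte-like cells, 57 of them bottom cells. Nr1h4 was detected in 41.3% of bottom enterocyte-like cells with Slc51a and in 15.5% of those without it, and in 19.0% and 9.34% after thinning, 9.63 points apart (0.888 to 21.5). In middle and top enterocyte-like cells the thinned shares were 10.4% and 11.4%, -1.05 points apart (-6.49 to 4.89). The difference between those 2 differences was not tested, since cells are not replicates.

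Slc51b and Nr1h4 shared 37 enterocyte-like cells, and Nr1h4 was in 12% of cells with Slc51b and 10.9% of cells without it after thinning. Fgf15 and Nr1h4 shared 14 of the 33 enterocyte-like cells with Fgf15. With all UMIs, Nr1h4 was found in 42.4% of cells with Fgf15 and 21.1% of the others, a difference of 21.3 points (5.89 to 38.3), but these cells had a median of 2516 UMIs against 1746, and thinned the difference was 5.42 points (-6.54 to 33.4). Slc51b and Fgf15 shared 4 cells, and 1 of them, the deepest ROBO cell with 13756 UMIs, also held 18 Slc51a and 3 Nr1h4 UMIs.

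**Figure D4:**
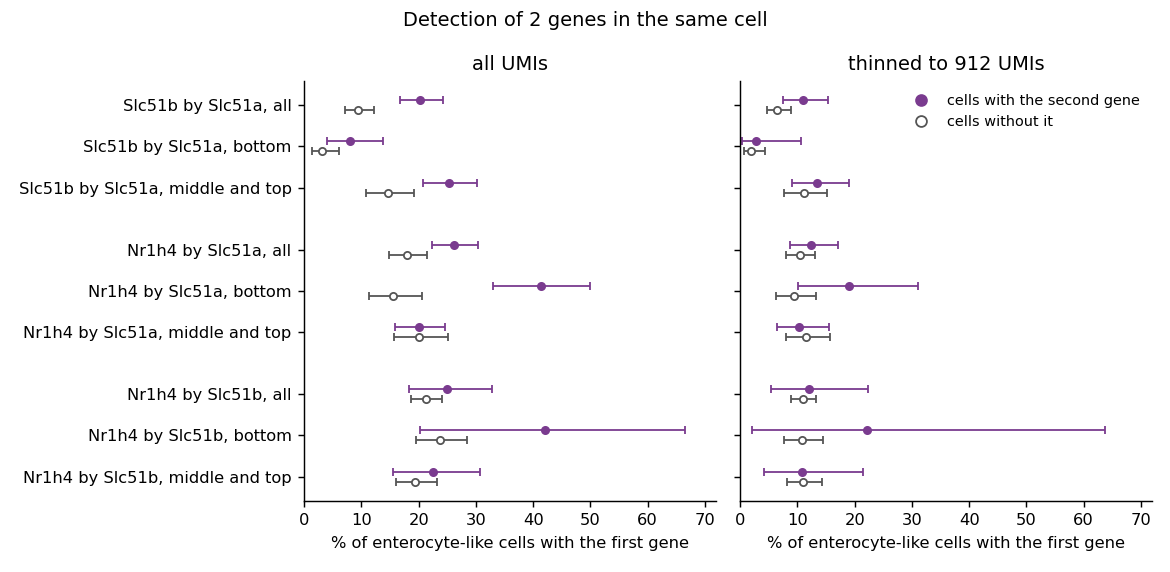
Share of enterocyte-like cells, in percent, with the first gene among cells with (filled) and without (open) the second gene, with all UMIs and thinned to 912 UMIs. The binomial 95% intervals are exact with all UMIs and approximate when thinned. The gap for Slc51b by Slc51a narrows from 20.3% against 9.36% to 10.9% against 6.49% once depth is matched.

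None of the 4 detected genes passed a 1.5-fold difference between genotypes in enterocyte-like cells, where 16.3% of 8832 genes with at least 20 UMIs did (7.31% higher and 9.04% lower in ROBO). The log2 ratio of ROBO over WT was -0.07 (-0.26 to 0.12) for Slc51a, 0.24 (-0.17 to 0.65) for Slc51b, 0.09 (-0.25 to 0.43) for Nr1h4 and 0.04 (-0.84 to 0.92) for Fgf15. The median over the 4 was 0.07, beside -0.00 over all genes tested. For Slc51a and Nr1h4 the intervals lie inside a 1.5-fold change in either direction, while those of Slc51b and Fgf15 reach beyond it. The interval held 0 for each of the 4, and left out 0 for 14.2% of all genes tested.

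Within classes no member with at least 20 UMIs passed 1.5-fold either, where 23.9% of genes did in bottom, 18.9% in middle and 26.6% in top enterocyte-like cells. For Slc51a the log2 ratio of ROBO over WT was -0.17 (-0.56 to 0.22) in the bottom class, -0.24 (-0.49 to 0.01) in the middle class and -0.10 (-0.54 to 0.34) in the top class. With middle and top cells together it was -0.22, with an interval (-0.43 to -0.000237) that leaves out 0 by a narrow margin, as the intervals of 7.92% of all genes tested in those cells did. Slc51b had log2 ratios of -0.57 (-2.02 to 0.75), 0.22 (-0.30 to 0.74) and -0.18 (-1.03 to 0.69) in the same order. Its positive ratio over all enterocyte-like cells stood beside a larger middle and top share in ROBO, 332 of 504 cells against 301 of 519 in WT. Within middle and top cells together the Slc51b log2 ratio was 0.11 (-0.33 to 0.55). For Slc51a, also higher in middle and top cells than in bottom cells, the log2 ratio over all enterocyte-like cells was -0.07, nearer 0 than the -0.22 of middle and top cells. The part of class mix in the ratios of Slc51a and Slc51b was not tested. Nr1h4 had 0.27 (-0.24 to 0.77), -0.04 (-0.62 to 0.53) and -0.20 (-1.01 to 0.61), and Fgf15 had 0.42 (-0.65 to 1.5) in bottom cells, with 16 WT and 17 ROBO UMIs.

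**Figure D5:**
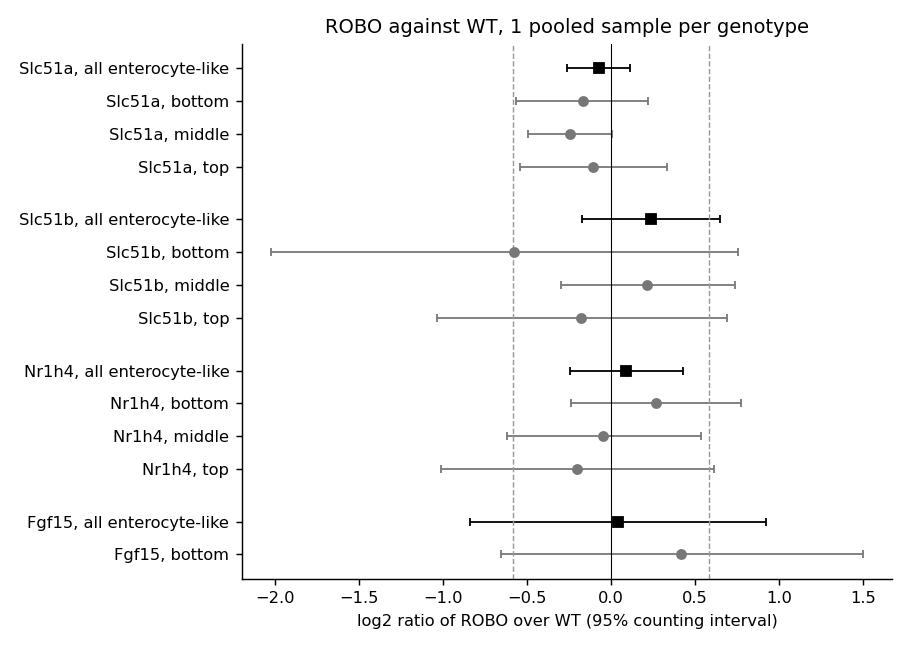
Log2 ratio of ROBO over WT of the 4 detected genes in all enterocyte-like cells (squares) and by class (circles), with conditional exact 95% intervals, for genes with at least 20 UMIs; dashed lines mark 1.5-fold. No square lies past a dashed line, and all 4 of their intervals hold 0.

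The wider bile acid pathway was taken from a list of 43 genes, of which 42 are rows of the matrices, all but Malrd1. In all cells 7 were at 0: Slc10a2, Slco1a5, Klb, the synthesis enzymes Cyp7a1, Cyp8b1 and Cyp7b1, and Sult2a8. Of the 25 with at least 20 UMIs in enterocyte-like cells, 0 were more than 1.5-fold higher in ROBO, 2 were lower and 23 were neither. Among all genes tested 16.3% were past 1.5-fold. The 25 genes are few and were not matched for UMIs, so a difference from that share was not tested. The median log2 ratio of the 25 was -0.04. The 2 lower genes were Gata4, a transcription factor of proximal enterocytes, with 112 WT and 60 ROBO UMIs and a log2 ratio of -0.86 (-1.34 to -0.39), and the efflux pump Abcb1a, with 48 and 30 UMIs and -0.64 (-1.34 to 0.05).

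Among nuclear receptors, Rxra, the partner of Nr1h4, had 0.88 UMIs per 10000 in enterocyte-like cells and a log2 ratio of -0.37 (-0.80 to 0.05). Nr0b2 (SHP), a target of Nr1h4 that represses other genes, had 17 UMIs, 10 in WT and 7 in ROBO, and Nr5a2 had 53. Maf had 1.27 UMIs per 10000 in bottom, 5.44 in middle and 6.25 in top cells, the direction of Slc51a, while Vdr went from 2.64 to 1.23 and 0.56. Of the other exporters, the apical pump Abcc2 went from 0.21 to 0.87 and 1.39, and Abcc3, a basolateral pump, went the other way from 0.58 to 0.14 and 0.03. The sterol transporters Abcg5, Abcg8 and Npc1l1 were each lower in bottom than in middle and top cells, as Slc51a was, and none passed 1.5-fold between genotypes. Of the liver-side partners of Fgf15, Fgfr4 had 59 UMIs in all cells and Klb none.

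The genes whose levels were most like each member's were found over 26 sums of a cluster and genotype among 9070 genes, by Pearson's r of log2(UMIs per 10000 + 0.1). For Slc51a they were Tm6sf2 (0.95), Cideb (0.94) and Mttp (0.93), for Slc51b the folate transporter Slc46a1 (0.95), Fabp2 (0.94) and Cyp3a13 (0.94), for Nr1h4 Myh14 (0.94), Arhgef16 (0.93) and Prap1 (0.93), and for Fgf15 Inpp1 (0.75), Pex16 (0.73) and Plcd1 (0.73). Slc51a and Slc51b had r = 0.86, and Fgf15 had 0.64 with Slc51a and 0.39 with Slc51b. The sums of one genotype share their libraries, so these are descriptions.

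At their 3′ ends, where the libraries were tagged, 3 of the genes overlap a neighbour on the opposite strand, which for Slc51a and Slc51b is listed in the matrices, and strand use in the counting is not given in the sources used here. Slc51a shares 567 bases with Pcyt1a (chr16:32430921-32475070), an enzyme of phosphatidylcholine synthesis, and Slc51b shares 2140 bases with Rasl12 (chr9:65398506-65414853). Rasl12 had 7 UMIs in all cells. Pcyt1a had 471, and its level was 0.15 UMIs per 10000 in stem cell-like cells and 0.50, 2.36 and 2.88 in the bottom, middle and top classes of enterocyte-like cells, with r = 0.93 to Slc51a over the 26 sums. In thinned middle and top enterocyte-like cells Pcyt1a was in 18.3% of cells with Slc51a and 19.8% of cells without it. Without strand, reads of the 2 genes cannot be told apart in the shared bases, and the part of Pcyt1a in the Slc51a counts was not tested. Fgf15 overlaps 2 antisense genes that are not rows of the matrices, Gm39119 by 1641 bases at its 3′ end and Gm26793 by 931 bases away from it, and Nr1h4 overlaps none.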

How the data were processed

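Per the labels and the study's methods, single-cell libraries were made with the SureCell WTA 3′ kit on a ddSEQ instrument, and the authors built gene matrices in BaseSpace. The submitters' processing notes name mm10 and GRCm38. Aligner, annotation, strand and cell calling are not given in the sources used here. The authors deposited raw UMI counts, 1 matrix per genotype. All 2597 cells were clustered in Seurat 5.3.0 (R 4.3.3; the methods name version 2) after scaling to 10000 UMIs per cell and regression of phase scores, with 20 components of 2000 variable genes less the 6 genes, at resolution 0.8. Clusters were named from fixed markers raised at least 1.5-fold in at least 10% of cells (3 or more), with 0.1 added, and stayed unnamed where more markers of another class than of their own were among the 10 leading genes. Scrublet (scanpy 1.11.5, rate 5%) called 6 doublets, which were kept. Depth was 463 to 13756 UMIs per cell.

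Shares have exact Clopper-Pearson, differences Newcombe, sums Poisson and ratios conditional exact intervals (scipy 1.17.1). A count of 0 is given with the limit of 3 counts. Thinned shares are exact expectations for 912 UMIs drawn from each cell without replacement. Intervals of thinned shares and of their differences use the expected number of cells as the count and are approximate. Genes were counted as past 1.5-fold among those with at least 20 UMIs. edgeR 4.0.16 and DESeq2 1.42.0 gave alternative scaling factors only. The named genes are the 6 genes, the pathway and regional lists, the 3 most alike genes per member with at least 50 UMIs, leading genes of enterocyte-like clusters and overlapping neighbours, the last chosen after values were seen. The ratio calculation was tested on simulated Poisson counts, which hold no spread between cells or mice and so check the arithmetic only. Positions come from GENCODE M21 and promoters from RefSeq. The members and lists were chosen with earlier results of these data known. Alternatives covered clustering, doublets, scaling, depth and the minimum of UMIs.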

Additional observations from a re-analysis of the deposited data

Results flagged for a closer look

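The genes were also counted in the 2 clusters that received no name, which lie outside the enterocyte-like cells compared above, and each value here lay above the limit set by 3 counts. In unnamed cluster 9, led by Cxcl10, Fosb and Atf3, with 47 WT and 48 ROBO cells, Slc51a had 6.19 UMIs per 10000 (5.04 to 7.53), Slc51b 0.81 (0.43 to 1.38), Nr1h4 1.80 (1.2 to 2.58) and Fgf15 0.43 (0.17 to 0.89, from 7 UMIs in 7 cells). The Fgf15 value was above the 0.31 of bottom enterocyte-like cells, within its interval. In unnamed cluster 7, led by Myl7 and Reg3g, with 67 WT and 59 ROBO cells, Slc51a had 2.02 (1.6 to 2.51), Slc51b 0.25 (0.12 to 0.46) and Nr1h4 0.65 (0.42 to 0.95) UMIs per 10000. The bottom enterocyte-like class had 2.12, 0.21 and 1.28 in the same order. Cluster 7 stayed unnamed because no class had 3 or more markers raised in it. Its leading genes nevertheless held the bottom enterocyte markers Reg3g and Reg3b. Adding it to the enterocyte-like cells was not tried.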

How the results depend on the processing

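All 48 alternative log2 ratios of ROBO over WT, from 12 settings for each of 4 genes, were within the reported counting interval and inside 1.5-fold: Slc51a was -0.21 to -0.06, Slc51b 0.02 to 0.25, Nr1h4 -0.07 to 0.16 and Fgf15 -0.33 to 0.25, so that the sign was not stable for Nr1h4 and Fgf15. The count of 2 pathway genes past 1.5-fold was 2 under all 3 alternatives. Shares depended on depth. Thinned, they were 30.4% for Slc51a, 7.83% for Slc51b, 1.43% for Fgf15 and 11.0% for Nr1h4, and 3.31% of cells had Slc51a with Slc51b, 0.377% Slc51a with Fgf15, 3.77% Slc51a with Nr1h4, 0.0322% Slc51b with Fgf15, 0.941% Slc51b with Nr1h4 and 0.234% Fgf15 with Nr1h4. With at least 2 UMIs required, the shares were 22.4% for Slc51a, 3.71% for Slc51b, 1.17% for Fgf15, 5.28% for Nr1h4 and 0.0% for Fabp6. Clustering changed which cells were enterocyte-like, 738 to 1085 of them. Resolution 0.5 gave Slc51a in 54.1% of cells at 6.03 UMIs per 10000, Slc51b in 19.4% at 1.47 and both in 13.1%. Resolution 1.2 gave Slc51a 4.66. Without regression of phase scores, Slc51a was in 52.5% at 5.37, with Slc51b at 1.13 and Nr1h4 at 1.56. Cells with at least 500 genes gave Slc51a in 54.4% at 5.20 and Slc51b in 17.1% at 1.09, both in 11.5%, and Slc51a with Nr1h4 in 15%. At resolution 0.5, without phase regression and with 500 genes, Fabp6 was at 0.0. Without doublets Slc51a was at 4.66. With equal weight for each cell, Slc51a was at 4.82 and Nr1h4 at 1.59, and without ribosomal protein genes and Rn45s Slc51a was at 4.68. Slc51a in immune-like cells was at 0.24 without 1 cell, a setting added after the data were seen, as were the clusterings for class ratios and the addition of unnamed cluster 9 to the enterocyte-like cells. That addition gave 1118 cells with Slc51a in 47.4% at 4.36, Slc51b in 14.2% at 0.92, Nr1h4 in 21.8% at 1.37 and Fgf15 in 3.58% at 0.23, each within the reported interval. The cause of the clustering shifts was not tested. No paired analysis was possible because the cell names carry no replicate number. Leaving out each replicate in turn was not run for the same reason. At this depth no difference between genotypes was detectable for Slc10a2, Fabp6 or Fgf15.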

Other observations

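Cells of a class were ranked by depth and cut into 3 equal parts. In middle and top enterocyte-like cells, the share of cells with Slc51a was 38.9% in the shallowest part (484 to 1132 UMIs), 55% in the middle part and 67.3% in the deepest part (1919 to 13756 UMIs), while its level was 6.76, 6.73 and 5.77 UMIs per 10000. For Nr1h4 the shares were 15.6%, 17.5% and 27.0%, and the levels were 2.33 (1.67 to 3.18), 1.62 (1.2 to 2.13) and 1.06 (0.82 to 1.33), so that the shallowest and deepest intervals did not overlap. In bottom enterocyte-like cells the Nr1h4 levels of the 3 parts were 1.59, 1.28 and 1.19 UMIs per 10000, with overlapping intervals.

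The Nr1h4 levels of the 2 middle enterocyte-like clusters were also split by genotype. In the Cubn and Lct cluster Nr1h4 had 1.38 UMIs per 10000 in WT (0.96 to 1.92) and 0.91 in ROBO (0.59 to 1.34), and in the Sis and Gsta1 cluster it had 1.12 (0.64 to 1.82) and 1.83 (1.23 to 2.61). Between genotypes (ROBO over WT) its log2 ratio was -0.61 (-1.41 to 0.17) in the first and 0.70 (-0.22 to 1.68) in the second. Both ratios are past 1.5-fold, in opposite directions, and both intervals hold 0. Over the middle class as a whole Nr1h4 did not pass 1.5-fold, where 18.9% of genes did. The difference between the clusters was not tested. After thinning, the ROBO minus WT difference in the share of cells with Nr1h4 was -7.45 points (-15.2 to -0.154) in the first, which leaves out 0, and 0.208 (-13.3 to 12.9) in the second, where 1 ROBO cell held 7 of the 30 UMIs. Of the regional markers with at least 20 UMIs in enterocyte-like cells, the median log2 ratio was 0.098 over 10 proximal and 0.242 over 8 distal ones. The 8 distal ones include Slc51a, Slc51b and Fgf15. The interval left out 0 for 6 and 5 of them, beside 14.2% of all genes tested. The markers were not matched to all genes for UMIs, and Apoa4, with 37267 WT and 42225 ROBO UMIs, left out 0 at a log2 ratio of 0.22. Middle and top cells were 332 of 504 enterocyte-like cells in ROBO and 301 of 519 in WT, and the markers differed between classes. Cubn had 0 UMIs in bottom and 485 in middle cells, and Slc34a2 24 and 212, while Gata4 went the other way with 108 and 53. The part of class mix in the marker ratios was not tested. Rbp2, at 0.43 (0.11 to 0.76), and Slc34a2, at 0.32 (0.02 to 0.62), were the highest proximal and distal markers. The distal marker Osr2 had 67 WT and 41 ROBO UMIs in enterocyte-like cells, a log2 ratio of -0.67 (-1.26 to -0.08), and was the other regional marker past 1.5-fold beside Gata4. Of all genes tested in those cells, 16.3% were past 1.5-fold.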
